A study of Mus musculus with 6 samples.

Results

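The mitochondrial ribosomal protein genes were taken as every gene whose symbol starts with Mrpl or Mrps followed by a digit, with symbols containing -ps (pseudogenes) left out. They were 78 of the 55536 genes in the deposited tables, 49 named for the large subunit (Mrpl) and 29 for the small subunit (Mrps). Ovarian polyA RNA of female ICR mice aged 10 weeks was sequenced on the evening of proestrus, with 1 library per mouse made from both ovaries, in 3 Control mice and 3 M1 mice. M1, a phenylhydrazone that promotes mitochondrial fusion, was injected intraperitoneally at 10 mg/kg in a mixture of DMSO, Tween 80 and PBS at 9 h and at 16 h, and the ovaries were taken at 20 h. Proestrus was checked by vaginal smear before treatment in both groups, the labels describe the M1 mice as disrupted in their cycle, and what the Control mice received is not given in the sources used here. The question was whether the genes that build the mitochondrial ribosome differed in level between the groups, as a whole, by subunit and one by one.

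The mitochondrial ribosome translates the few proteins encoded in mitochondrial DNA, all of which are core subunits of the respiratory chain complexes and ATP synthase. Its 2 rRNAs are transcribed from mitochondrial DNA, but its proteins are encoded in the nucleus, made in the cytosol and imported. The small subunit binds the mRNA and decodes it, and the large subunit joins the amino acids and holds the exit tunnel at the inner membrane. Compared with its bacterial ancestor it has lost rRNA and gained proteins. Of the 78 genes, 46 encode proteins with a bacterial counterpart, 31 encode proteins found in mitochondria alone, and Mrps36 encodes a protein that in mammals belongs to the 2-oxoglutarate dehydrogenase complex rather than to the ribosome. In ovary, mitochondria carry the first step of steroid synthesis, in theca, granulosa and luteal cells.

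The 78 genes lay on 17 chromosomes, with 11 on chromosome 11, 8 on chromosome 17 and 7 on chromosome 6 (GRCm38, GENCODE vM21). For 33 of them (42.3%) the start of another protein-coding gene lay within 1000 bases on the opposite strand, against 10.8% of 22028 protein-coding genes. Mrpl46 and Mrps11, a large and a small subunit gene, are each other's neighbour in this way. Mrpl36 shares its start region with Ndufs6, a complex I subunit gene, Mrps12 with Sars2, the mitochondrial seryl-tRNA synthetase gene, and Mrpl43 with Twnk, the mitochondrial DNA helicase gene.

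Promoter sequences of 69 genes (250 bases before to 50 after the start, RefSeq, GRCm38.p6) were searched on both strands for the recognition sequences of 3 factors known to act on nuclear genes for mitochondrial proteins. A gene counted as having the letters if any of its annotated promoters held them, and some genes had several. The letters GCGCANGC (NRF1) were present in 31.9% of the 69 genes, against 20.3% of 11921 tested genes with a promoter and 11.2% of all 27025 genes with one. The letters CCGGAAGT (ETS factors) were present in 17.4%, against 8.2% and 4.3%, and AAGATGGC (YY1) in 17.4%, against 4.8% and 3.2%. Any of the 3 was present in 56.5%, against 29.7% and 16.9%. The stretches below lie just before the annotated start of 6 genes, outside annotated exons. They show such letters in genes with a positive fold change (Mrpl22, Mrps22, Mrpl45) and in genes without one (Mrpl9, Mrpl12). The stretch shown for Mrps14 held none of the 3, and the rest of its promoter is not shown. Capitals mark the matching letters, on either strand, and in Mrpl9 a match on each strand overlaps the other.
Mrpl22, chr11:58171564-58171660, plus strand, NRF1: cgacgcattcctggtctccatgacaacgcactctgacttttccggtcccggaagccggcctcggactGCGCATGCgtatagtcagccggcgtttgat
Mrps22, chr9:98601680-98601779, minus strand, ETS: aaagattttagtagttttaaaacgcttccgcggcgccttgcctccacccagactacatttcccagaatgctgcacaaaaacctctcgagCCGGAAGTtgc
Mrpl45, chr11:97315616-97315715, plus strand, NRF1: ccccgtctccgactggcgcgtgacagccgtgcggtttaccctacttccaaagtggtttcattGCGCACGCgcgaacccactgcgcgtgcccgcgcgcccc
Mrpl9, chr3:94443236-94443317, plus strand, NRF1: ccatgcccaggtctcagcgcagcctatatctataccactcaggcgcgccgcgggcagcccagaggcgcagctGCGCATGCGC
Mrpl12, chr11:120484537-120484612, plus strand, NRF1: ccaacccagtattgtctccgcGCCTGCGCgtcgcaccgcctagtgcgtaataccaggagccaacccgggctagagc
Mrps14, chr1:160195115-160195214, plus strand, none: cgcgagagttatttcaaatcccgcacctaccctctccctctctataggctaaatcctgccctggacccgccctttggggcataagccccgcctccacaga
The median log2 fold change, M1 against Control, was 0.22 in the 39 genes with any of the letters and 0.28 in the 30 without. It was 0.21 with and 0.28 without the NRF1 letters, 0.17 and 0.27 for YY1, and for ETS the order was the other way, with 0.32 in the 12 genes that had the letters and 0.24 in the 57 that did not. These differences were not tested.

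The counts assigned to genes summed to between 12536440 and 18651402 per library. The chosen markers of granulosa, theca, luteal and stromal cells and of oocytes were all detected, with none at 0. Of the theca markers, Star and Cyp11a1 act in steroid synthesis, which is not limited to theca cells. M1 library 2 had the highest summed luteal markers (14990 TPM, against 1294 to 8450 in the other 5 libraries), of which Akr1c18 alone made up 13670 TPM. The remaining luteal markers, Lhcgr, Ptgfr and Prlr, were not highest in that library. Control library 1 had the lowest summed luteal markers (1294 TPM) and theca markers (3276 TPM). Its Akr1c18 was at 8.97 TPM, against 959 to 13670 TPM in the other 5 libraries. It also had the highest summed granulosa markers (4753 TPM) and oocyte markers (1080 TPM). Summed oocyte markers were 299 to 574 TPM in the M1 libraries and 592 to 1080 TPM in the Control libraries, smooth muscle markers 509 to 699 against 720 to 974, stromal markers 613 to 645 against 673 to 860, and adipocyte markers 4.07 to 9.33 against 11.5 to 21.0, each without overlap. The adipocyte sum was mostly Plin1, since Adipoq and Cidec had at most 0.600 and 0.130 TPM. Of the tested markers in these lists, Dcn (log2 fold change 0.20) and Ooep (0.03) were positive. Col1a1 (-0.02) and Tagln (-0.01) lay near 0, and the others were lower. On the TPM scale 23.1% of all tested genes had every M1 library below every Control library, and 4.11% had every M1 library above. These sums moved with the groups, and their part in the values below was not tested. In RNA from whole ovaries, fewer cells of a type and less RNA per cell cannot be told apart.

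Of the 78 genes, 77 passed the filter on low counts. Mrpl53, a large subunit gene on chromosome 6 (83109040 to 83109939, plus strand), had 0 counts in all 6 libraries, where 3 counts would correspond to 0.161 to 0.239 CPM (counts scaled to library size). Of its 790 exon bases, 695 lie in exons of Gm42688 on the same strand, and Gm42688 had 32 to 66 counts. A Mrpl53 transcript was therefore not detectable with this counting, which is no measure of its absence. In all, 33 of the 78 genes share exon bases with another gene, 8 on the same and 28 on the opposite strand, and whether the counting used strand is not given in the sources used here.

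Levels between genes were compared as TPM, which is scaled by gene length. The median of the 78 genes was 47.5 TPM, 52.0 for the large and 30.8 for the small subunit genes. The order of the genes was close to the same in every library, with a Spearman correlation over genes of 0.935 to 0.982 between any 2 libraries. The highest level was that of Mrps21, a small subunit gene with a bacterial counterpart, with 226, 159 and 159 TPM in Control libraries 1 to 3 and 245, 241 and 267 TPM in M1 libraries 1 to 3. Mrpl34 followed with a mean of 128 TPM, then Mrpl54 with 107, Mrps7 with 106 and Mrpl10 with 103. The next small subunit gene was Mrps23, at rank 12 with 86.2 TPM. The lowest tested genes were Mrps35 with 11.4 TPM, Mrpl48 with 11.6, Mrps34 with 12.1, Mrpl15 with 14.7 and Mrps10 with 14.7. Although the proteins are present once each in a ribosome, apart from the stalk protein of Mrpl12, the TPM of their genes differed by more than an order of magnitude. TPM here divides by all annotated exon bases of a gene, 739 for Mrps21 and 8631 for Mrps35. Part of this spread therefore reflects length. In CPM, Mrps21 had means of 39.2 in Control and 61.8 in M1, and Mrps35 had 28.5 and 32.7.

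The test of M1 against Control was edgeR's quasi-likelihood test over 17499 genes, and calls needed a Benjamini-Hochberg adjusted p under 0.05 together with a fold change above 1.5. None of the 77 genes was called (background over all tested genes 0.00571%), and their smallest adjusted p was 0.195 (edgeR). Without adjustment, p was under 0.05 for 21 genes with a positive and 0 with a negative fold change, where 7.7% of all tested genes reached it with a positive and 9.17% with a negative fold change. DESeq2 called 2 of the 77, Mrpl51 and Mrps21, both higher (background 1.5% of 14779 genes), and limma-voom called 0.

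The fold changes were small and mostly of the same sign. The log2 fold change was positive in 66 genes and negative in 11, a share of 85.7% above 0 against 49.5% of all tested genes. The median was 0.25 (a 1.19-fold difference), with quartiles of 0.10 and 0.36 and a range of -0.26 to 0.68, and the median of all tested genes was -0.00. In 31 genes (40.3%) every M1 library lay above every Control library, against 11.4% of all tested genes, and in 2 genes (2.6%) every M1 library lay below, against 11.2%. The log2 fold change exceeded 0.5 in 10 genes and lay within 1 SE of 0 in 20.

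**Figure D1:**
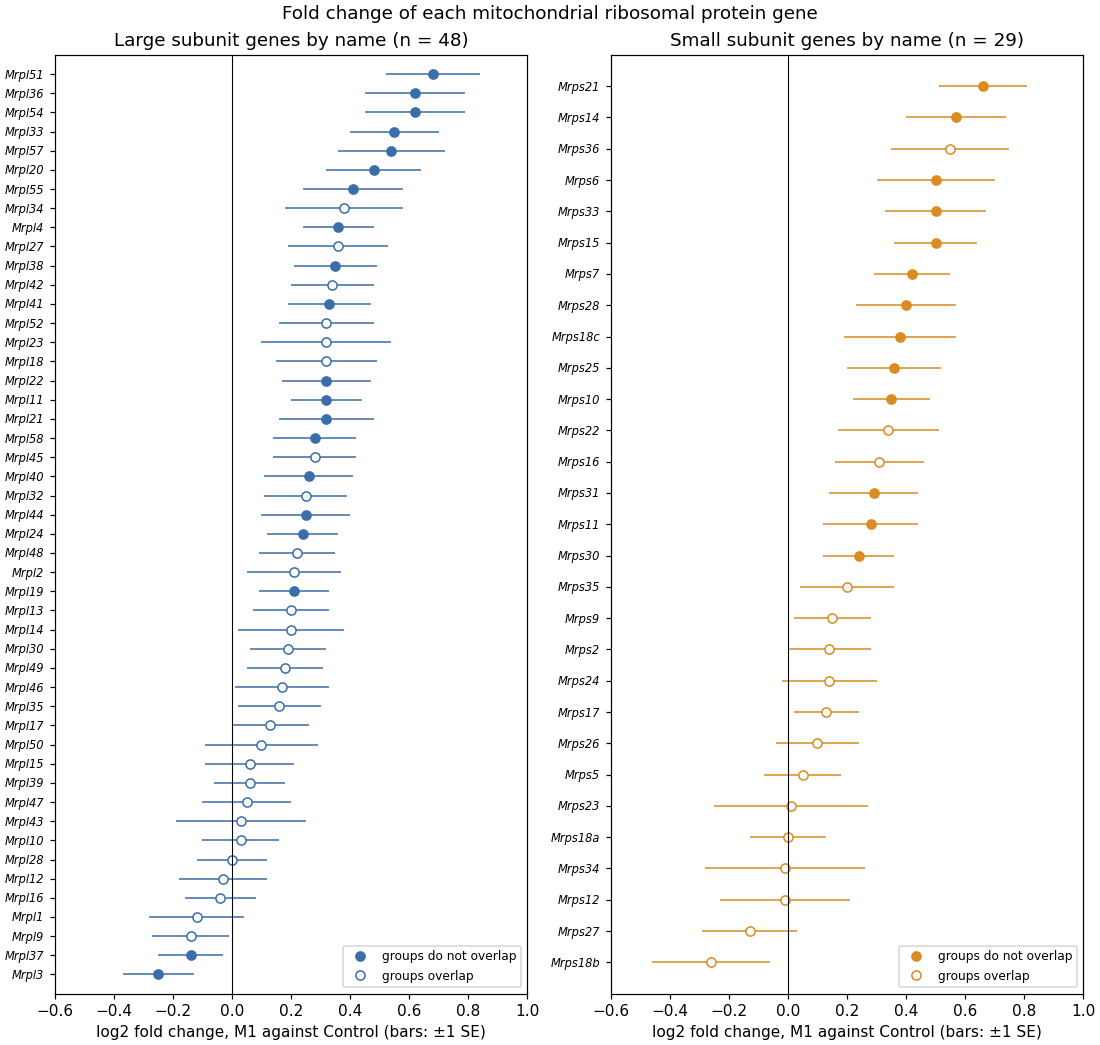
Log2 fold change of M1 against Control (horizontal axis) for the 48 tested large subunit genes and the 29 small subunit genes, with bars of 1 SE, from edgeR. Filled points mark the 33 genes whose 3 M1 and 3 Control libraries do not overlap: 31 with M1 higher, and Mrpl3 and Mrpl37 with M1 lower.

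The libraries within a group differed by as much as the groups. The median deviation of the 77 genes from their own mean over the 6 libraries was 0.00, -0.25 and -0.11 on the log2 scale in Control libraries 1 to 3 and 0.01, 0.23 and 0.09 in M1 libraries 1 to 3, so that Control library 1 and M1 library 1 were alike. For 43 genes Control library 2 was the lowest of the 6, and for 42 genes M1 library 2 was the highest. The genes took 0.294%, 0.228% and 0.251% of the counts in Control libraries 1 to 3 and 0.282%, 0.311% and 0.298% in M1 libraries 1 to 3, and these shares overlapped. Without Control library 1 the median was 0.32 and 6 genes were called (Mrpl36, Mrpl54, Mrps14, Mrps15, Mrps21 and Mrps33, background 1.28% for higher genes), and 50 genes had every M1 library above both remaining Control libraries (background 22.4%). Without M1 library 2 the median was 0.20 and 8 genes reached an unadjusted p under 0.05 by edgeR. Without Control library 2 the median was 0.19 and 9 genes did. The share of all tested genes under that p without these libraries is not given here, so the counts of 8 and 9 are no result about the members alone.

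**Figure D2:**
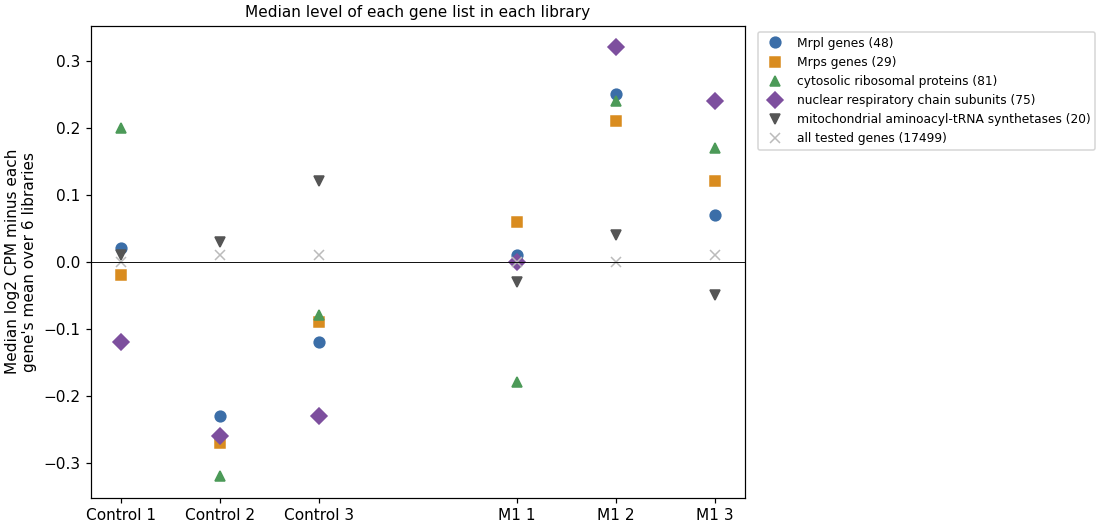
For each gene list (symbols, with the number of tested genes), the median over its genes of log2 CPM minus the gene's mean over the 6 libraries (vertical axis), in each library (horizontal axis). The Mrpl and Mrps genes are lowest in Control library 2 and highest in M1 library 2, and the nuclear respiratory chain subunits lie at -0.12 or below in all 3 Control libraries.

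The 48 large subunit genes had a median log2 fold change of 0.24, with 41 positive and 7 negative, and 18 with every M1 library above every Control library (37.5%, where 11.4% of all tested genes did so). For the 29 small subunit genes the median was 0.28, with 25 positive and 4 negative, and 13 with every M1 library above (44.8%, beside the same 11.4%). Unadjusted p lay under 0.05 for 12 large (25.0%) and 9 small subunit genes (31.0%) with a positive value, against 7.7% of all tested genes. With an offset that removed the trend of each library with gene length, the medians were 0.12 for the large subunit (34 of 48 positive) and 0.24 for the small subunit (23 of 29). The difference between the subunit medians, -0.04 without and -0.11 with the offset, was not tested. Summed over their genes, the large subunit had 2897, 2286 and 2538 TPM in Control libraries 1 to 3 and 2647, 2752 and 2736 TPM in M1 libraries 1 to 3, and the small subunit 1423, 1111 and 1311 TPM against 1389, 1422 and 1427 TPM. For each subunit Control library 1 lay among or above the M1 libraries.

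The ratio of large to small summed TPM was 2.04, 2.06 and 1.94 in Control libraries 1 to 3 and 1.91, 1.94 and 1.92 in M1 libraries 1 to 3 (2.01 ± 0.065 and 1.92 ± 0.015, SD, n = 3). By name every M1 ratio lay below every Control ratio, with 1.935 in M1 library 2 against 1.936 in Control library 3. The names do not follow the structure throughout, since the proteins of Mrps30 and Mrps18a sit in the large subunit, that of Mrps36 in neither, and 5 further proteins of the ribosome carry other names (Dap3, Ptcd3, Chchd1 and Aurkaip1 in the small subunit, Gadd45gip1 in the large). Assigned by structure, the ratios were 1.85, 1.87 and 1.78 in the Control libraries and 1.76, 1.79 and 1.79 in the M1 libraries. These overlapped, and the median log2 fold change was 0.24 for 51 large and 0.24 for 30 small subunit genes.

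**Figure D3:**
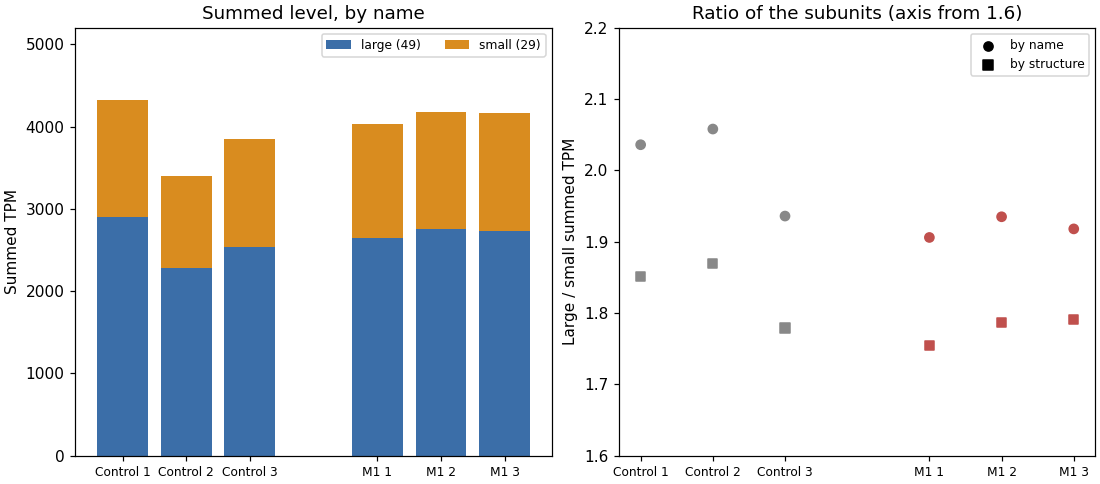
Left, summed TPM of the 49 Mrpl and 29 Mrps genes stacked in each library. Right, the ratio of large to small subunit summed TPM in each library, assigned by gene name (circles) or by structure (squares), with Control in grey and M1 in red and an axis that starts at 1.6. The groups do not overlap by name and overlap by structure.

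By origin, the 46 genes with a bacterial counterpart showed a median log2 fold change of 0.24, against 0.25 in the 30 tested mitochondria-specific genes. Divided by subunit as well, the bacterial small subunit genes had a median of 0.33 (15 of 16 positive), the bacterial large subunit genes 0.21 (24 of 30), the mitochondria-specific large subunit genes 0.26 (19 of 20) and the mitochondria-specific small subunit genes 0.15 (7 of 10). With the length offset the order of the last 2 classes was reversed, with 0.09 (15 of 20) for the large and 0.20 (6 of 10) for the small subunit, while the bacterial small and large subunit genes had 0.24 and 0.14. The differences between these classes were not tested.

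Among the large subunit genes with the smallest p, Mrpl51, which encodes a mitochondria-specific protein, had 51.7, 52.7 and 55.3 CPM (scaled by TMM) in Control libraries 1 to 3 and 66.9, 98.7 and 91.2 CPM in M1 libraries 1 to 3. The groups did not overlap, and the spread was wider in the M1 group (53.2 ± 1.85 and 85.6 ± 16.6 CPM, SD, n = 3). The log2 fold change, with its standard error (SE), was 0.68 (SE 0.16, adjusted p = 0.195 by edgeR and 0.0176 by DESeq2, 0.0176 to 0.487 over all settings tried), the highest of the 77. Its exons contain the microRNA gene Mir3098. The gene whose start faces it, Ncapd2, a condensin subunit gene, had a log2 fold change of -0.50 (unadjusted p = 0.00449 by edgeR's model over all genes).

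Mrpl54, also mitochondria-specific, had 26.0, 21.4 and 18.5 CPM in the Control libraries and 30.5, 37.7 and 33.3 CPM in the M1 libraries, with a log2 fold change of 0.62 (SE 0.17, and an adjusted p = 0.201 by edgeR). Mrpl36, whose small protein has a bacterial counterpart, had 31.2, 22.4 and 24.0 CPM against 34.2, 42.0 and 42.7 CPM, and the same log2 fold change of 0.62 (SE 0.17). In both genes Control library 1 was the nearest to the M1 libraries, and the groups did not overlap. Mrpl33, another small protein of bacterial origin, had 69.6, 68.2 and 63.9 CPM against 109, 108 and 79.1 CPM. Its log2 fold change was 0.55 (SE 0.15), and M1 library 3 was the lowest of the M1 libraries.

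Mrpl57, a mitochondria-specific gene, had 20.9, 20.9 and 20.9 CPM in the Control libraries and 23.1, 36.1 and 32.0 CPM in the M1 libraries, with a log2 fold change of 0.54 (SE 0.18). Mrpl20, whose bacterial counterpart takes part early in assembly of the large subunit, had 34.2, 30.8 and 39.2 CPM against 40.9, 56.5 and 48.4 CPM, and a log2 fold change of 0.48 (SE 0.16). Neither gene's groups overlapped, but M1 library 1 lay close to the highest Control library in both. The adjusted p of these 5 genes after Mrpl51 lay between 0.201 and 0.234 (edgeR).

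Among the small subunit genes, Mrps21 had 47.4, 35.8 and 34.3 CPM in the Control libraries and 56.8, 64.0 and 64.5 CPM in the M1 libraries (39.2 ± 7.14 and 61.8 ± 4.30 CPM, SD, n = 3). It thus had both the highest TPM of the 78 genes and, with 0.66 (SE 0.15, adjusted p = 0.195 by edgeR and 0.021 by DESeq2, 0.021 to 0.487 over all settings tried), the highest log2 fold change of the small subunit. Mrps14, on the head of the small subunit, had 38.8, 27.7 and 27.3 CPM against 42.9, 47.0 and 49.3 CPM, and a log2 fold change of 0.57 (SE 0.17). Mrps15 had 44.5, 33.5 and 36.0 CPM against 51.6, 56.5 and 53.5 CPM, and a log2 fold change of 0.50 (SE 0.14). In these 3 genes, as in Mrpl36, Control library 1 stood above the other Control libraries and below every M1 library.

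Mrps7, whose bacterial counterpart starts assembly of the head by binding rRNA, had 67.2, 53.2 and 57.8 CPM in the Control libraries and 74.0, 87.5 and 76.5 CPM in the M1 libraries. The log2 fold change reached 0.42 (SE 0.13, with an adjusted p = 0.227 by edgeR), and its groups did not overlap. Mrps36, the gene that belongs to another complex, had 22.7, 16.2 and 20.9 CPM against 22.5, 33.1 and 32.1 CPM, a log2 fold change of 0.55 (SE 0.20), and its groups overlapped in Control library 1 and M1 library 1. The pseudogenes named for Mrps36, Mrpl48 and Mrpl23 had between 0 and 77 counts in a library, and reads from near-identical copies could be divided between them and the genes.

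**Figure D4:**
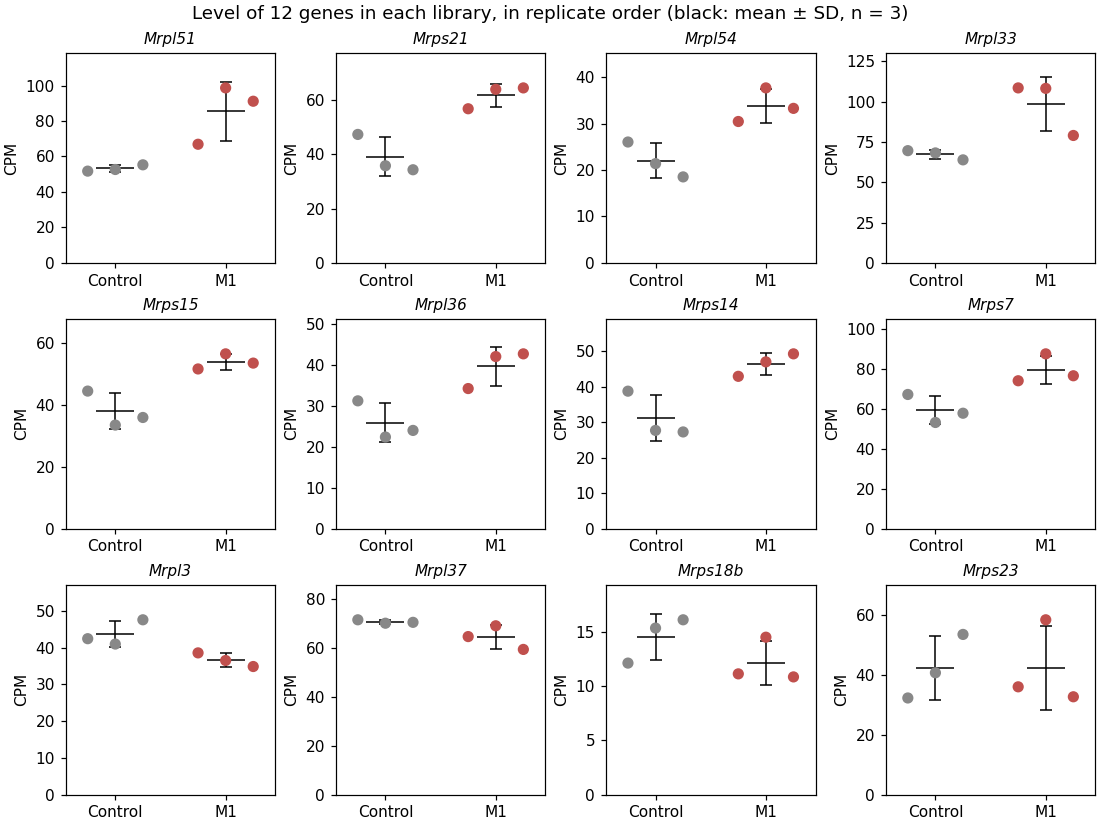
CPM (vertical axis, from 0) of 12 genes in each Control library (grey) and M1 library (red), with the mean and SD of 3 libraries in black. The first 8 panels are the genes with the smallest p, in each of which every M1 library lies above every Control library, and the last 4 are Mrpl3 and Mrpl37, in which every M1 library lies below, and Mrps18b and Mrps23, in which the groups overlap.

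A few genes lay on the other side. Mrpl3, a large subunit protein of bacterial origin near the peptidyl transferase centre, had 42.4, 41.0 and 47.6 CPM in the Control libraries and 38.6, 36.5 and 34.9 CPM in the M1 libraries. The log2 fold change came to -0.25 (SE 0.12, with an adjusted p = 0.321 by edgeR). Mrpl37, mitochondria-specific, had 71.5, 70.1 and 70.5 CPM against 64.6, 69.0 and 59.4 CPM, with a log2 fold change of -0.14 (SE 0.11). These were the 2 genes with every M1 library below every Control library, and in Mrpl37 M1 library 2 lay close to the Control libraries.

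Mrps18b had the most negative log2 fold change, -0.26 (SE 0.20), with 12.1, 15.3 and 16.1 CPM in the Control libraries and 11.1, 14.5 and 10.8 CPM in the M1 libraries, which overlapped. Mrpl9 had 45.2, 46.7 and 48.9 CPM against 48.3, 39.9 and 39.4 CPM (-0.14, SE 0.13), and Mrps27, a protein with pentatricopeptide repeats, had 29.1, 24.9 and 25.2 CPM against 25.0, 27.6 and 19.9 CPM (-0.13, SE 0.16). Mrps18b has 2 relatives of similar sequence, of which Mrps18c counts here as the counterpart of the bacterial protein and the others as mitochondria-specific. Of these, Mrps18a had a log2 fold change of 0.00 (SE 0.13), with 32.0, 35.7 and 36.5 CPM against 32.2, 38.1 and 34.1 CPM, and Mrps18c had 0.38 (SE 0.19), with every M1 library above every Control library. The 3 genes of this family therefore had values on either side of 0, with no difference between them tested.

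Some genes, among them abundant ones, had fold changes near 0. Over the 77 genes the log2 fold change was nonetheless higher at higher levels (Pearson correlation with log2 mean TPM, 0.35). Mrpl10, which holds the stalk that binds translation factors, had 58.8, 48.6 and 56.0 CPM in the Control libraries and 55.8, 61.2 and 50.0 CPM in the M1 libraries (log2 fold change 0.03, SE 0.13). Of its neighbours at the stalk, Mrpl12 had a log2 fold change of -0.03 (SE 0.15), while Mrpl11 had 0.32 (SE 0.12), with 31.2, 26.8 and 27.8 CPM against 37.0, 35.4 and 35.0 CPM. Mrps12, a decoding-site protein, had -0.01 (SE 0.22).

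Mrps23 had 32.3, 40.7 and 53.5 CPM in the Control libraries and 36.0, 58.3 and 32.7 CPM in the M1 libraries. Its log2 fold change of 0.01 (SE 0.26) was among the least precise, and within each group its libraries ranged widely. Mrpl34, the shortest gene of the group at 607 bases and the next after Mrps21 in TPM, had 22.6, 19.7 and 21.6 CPM against 20.1, 34.3 and 28.6 CPM (0.38, SE 0.20), which overlapped in M1 library 1.

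The genes with the lowest TPM had long exons or shared them. Mrps35 (8631 exon bases) had 34.0, 22.9 and 28.6 CPM in the Control libraries and 33.1, 33.4 and 31.7 CPM in the M1 libraries, with a log2 fold change of 0.20 (SE 0.16). Mrpl48 had 30.5, 26.7 and 24.4 CPM against 33.3, 31.9 and 30.1 CPM (0.22, SE 0.13), and Mrpl15 had 44.4, 31.2 and 38.2 CPM against 41.3, 40.3 and 36.9 CPM (0.06, SE 0.15). In these 3 genes the groups overlapped. Mrps10 had 36.9, 30.6 and 30.5 CPM against 42.2, 43.1 and 39.9 CPM (0.35, SE 0.13), without overlap.

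Mrps34, of 2064 exon bases, shares 763 of them with Nme3 on the same strand and 1309 with Mapk8ip3 on the other, and its 5.26, 8.75 and 9.40 CPM against 7.21, 8.60 and 7.51 CPM (-0.01, SE 0.27) are uncertain for that reason. Mrps30, a large subunit protein by structure, had 36.1, 31.4 and 30.5 CPM against 37.7, 37.2 and 40.8 CPM (0.24, SE 0.12), without overlap. Over the 45 genes that share no exon base with another gene, a selection made after the data were seen, the median log2 fold change was 0.29, and over the 32 tested genes that do it was 0.22.

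Exon length moved with these values. The 77 genes were short, with a median of 2533 exon bases against 3872 in all tested genes, and short genes had higher log2 fold changes in these libraries (Pearson correlation over genes with log2 length, -0.25 in the 77 and -0.29 in all tested genes, where genes of 1 library share its depth and RNA quality). The slope of each library's values on log2 length came to -0.0213, 0.085 and 0.0991 for the Control libraries and -0.0242, -0.0684 and -0.0703 for the M1 libraries, in replicate order. With an offset for length in each library, the median log2 fold change of the 77 genes was 0.16 in place of 0.25. The log2 fold change was positive in 57 genes (74.0%, against 50.2% of all tested genes). An unadjusted p under 0.05 by edgeR with a positive value was reached by 17 (background 7.26%). Whether the groups overlap after the offset is not given here.

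Among the 26 shortest genes (607 to 1667 bases) the median log2 fold change was 0.32 without the offset and 0.07 with it. The 25 genes of middle length had 0.26 and 0.16, and the 26 longest (3332 to 8631 bases) 0.20 and 0.28. Under the offset Mrps21 went from 0.66 to 0.37 and Mrpl54 from 0.62 to 0.35, while Mrpl51 had 0.71 and Mrpl33, with 7326 exon bases, had 0.68. The offset, like the TPM, used all annotated exon bases of a gene. Which transcripts of a gene were present was not examined, so its fit to single genes is uncertain. On the authors' TPM scale, with a pseudocount of 1, the median log2 fold change of the 77 genes was 0.06, and that of all tested genes was -0.16, so the distance between them was 0.22. On that scale 5 genes had every M1 library above every Control library (4.11% of all tested genes) and 6 had every M1 library below (23.1%).

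**Figure D5:**
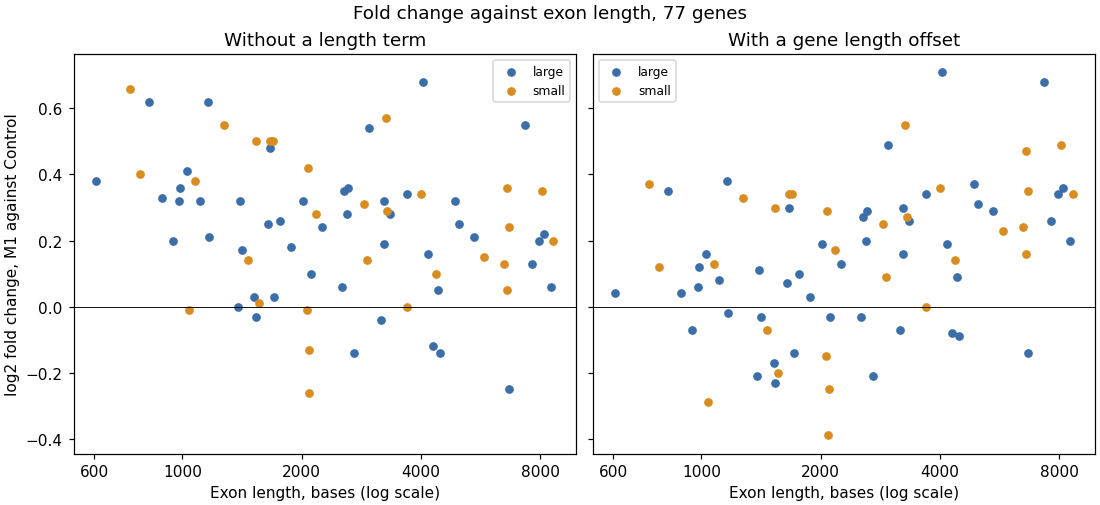
Log2 fold change of M1 against Control (vertical axis) against exon length in bases (horizontal axis, log scale) for the 77 tested genes, without a length term (left) and with a length offset per library (right). The short genes lie lower with the offset, and the median of the 77 is 0.25 on the left and 0.16 on the right.

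The genes that share a start region with a mitochondrial ribosomal protein gene showed smaller values. For the 28 such pairs whose partner was tested and was not itself in the list, the median log2 fold change of the partners was 0.06, with 18 above 0, and that of the mitochondrial ribosomal protein genes was 0.22. The member was above its partner in 18 pairs. Ndufs6 had 0.24 beside 0.62 for Mrpl36, and Sars2 had 0.09 beside -0.01 for Mrps12.

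Other genes of mitochondrial translation were compared by lists. Of the 5 ribosome proteins without an Mrp symbol, Aurkaip1 had 47.8, 42.5 and 40.3 CPM in the Control libraries and 51.7, 70.9 and 57.1 CPM in the M1 libraries (log2 fold change 0.46, SE 0.15), without overlap. Gadd45gip1 had 0.40 (SE 0.20), and Dap3, Chchd1 and Ptcd3 had 0.09, 0.08 and -0.04. Both mitochondrial rRNAs had positive values, with mt-Rnr1 at 1083, 658 and 522 CPM against 1758, 1027 and 1480 CPM (0.91, SE 0.31) and mt-Rnr2 at 0.66 (SE 0.30), and in both the groups overlapped. In libraries made from polyA RNA these rRNA values depend on the selection and are uncertain.

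Of 28 genes for assembly of the mitochondrial ribosome, 17 had a positive and 11 a negative log2 fold change, with a median of 0.13. Malsu1, which keeps the subunits of an unfinished ribosome apart, had 13.6, 11.0 and 12.2 CPM against 17.2, 18.1 and 16.8 CPM (0.50, SE 0.16), without overlap. Trub2, a pseudouridine synthase, had -0.35 (SE 0.15), and Fastkd2, which acts on the large subunit rRNA, -0.32 (SE 0.14), both with every M1 library below every Control library. In Trub2 the margin was narrow, with 23.71 CPM in M1 library 1 against 23.85 CPM in Control library 1. Of the 28 genes, 3 had every M1 library above every Control library and 3 had every M1 library below. These counts lie near the 11.4% and 11.2% of all tested genes. The 15 translation factors had a median of -0.00 (7 positive and 8 negative) and the 20 mitochondrial aminoacyl-tRNA synthetases a median of -0.04 (9 positive and 11 negative), and 0 genes of either list reached an unadjusted p under 0.05 in edgeR. Taco1, a translational activator of cytochrome oxidase subunit 1, was nearest to it with 6.15, 8.68 and 12.7 CPM against 6.37, 5.95 and 4.59 CPM (-0.70, SE 0.31), followed by Mtif2, the initiation factor that brings the first tRNA, with 0.30 (SE 0.15) and Mtrf1, of the release factor family, with -0.40 (SE 0.21). Of the synthetases, Ears2, Wars2 and Cars2 had the smallest p, with -0.33, -0.32 and -0.22 (SE 0.19, 0.18 and 0.13). DESeq2 called 0 genes of these lists.

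Cytosolic ribosomal proteins and the nuclear subunits of respiratory complexes I, III, IV and ATP synthase were the lists nearest in kind. The 81 tested cytosolic ribosomal protein genes had a median log2 fold change of 0.13, with 60 positive and 21 negative, and every M1 library above every Control library in 1 of them (1.2%). With the length offset their median was -0.01. The smallest p among them were those of Rpl3 (-0.45, SE 0.17, every M1 library below), Rpl24 (0.71, SE 0.31, at only 2.23 to 5.38 CPM) and Rps27l (0.38, SE 0.17). The 75 tested respiratory subunit genes had a median of 0.40, 67 positive and 8 negative, and 0.22 with the offset, and 43 of them (57.3%) had every M1 library above every Control library, against 11.4% of all tested genes. Uqcrq, a complex III subunit gene, had 86.3, 87.1 and 81.5 CPM in the Control libraries and 129, 160 and 155 CPM in the M1 libraries (0.80, SE 0.12, adjusted p = 0.195 by edgeR). Ndufs8 and Ndufb7, of complex I, had 0.69 (SE 0.14) and 0.60 (SE 0.11), also without overlap. By median, the mitochondrial ribosomal protein genes lay between the 2 lists both without and with the offset, and these differences between lists were not tested.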

How the data were processed

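Ovaries of 3 Control and 3 M1 mice were sequenced, and groups came from the sample labels, which call the 3 samples of each group biological replicates. Read quality was assessed by the authors with FastQC and MultiQC, followed by trimming (Trimmomatic 0.38), alignment to GRCm38 (HISAT2 2.1.0) and assignment to genes (featureCounts 2.0.0), per the labels. Raw whole-number counts were deposited. The deposited TPM values were scaled by the authors for gene length to 1 sum per library, and the deposited FPKM values, used to recover gene lengths, by length and depth. The recovered lengths equalled the GENCODE vM21 exon union within 1 base for 100% of 33353 genes.

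The main test ran on the counts with edgeR 4.0.16 in R 4.3.3 (filterByExpr, minimum count 10, minimum total 15, TMM, quasi-likelihood test, 17499 genes). The common biological coefficient of variation was 0.257. Adjusted p-values come from edgeR unless DESeq2 1.42.0 or limma 3.58.1 (voom, or a trend on log2(TPM + 1)) is named. The length offset was a lowess of each library's deviations on log2 length (span 0.5). The edgeR test, with and without the length offset, was run on simulated data. Alternatives were RLE size factors, other filters, a replicate block, the length offset, TPM, DESeq2, voom and leaving out each library. The floor given for Mrpl53 covers counting error only, while the SE come from the edgeR fit and include variation between libraries.

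Full values are given for the 10 genes with the smallest p, the 5 with the most negative fold change, the 3 most and 3 least abundant of each subunit, those whose name and structure differ, those with every M1 library below, and those untested, and for up to 3 genes with the smallest p of each related list. Genes named beside these were chosen for their role or after their values were seen. The members, lists and tests were chosen with earlier results of these data known.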

Additional observations from a re-analysis of the deposited data

How the results depend on the processing

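The count of called genes was 0 by edgeR under RLE size factors, other filters, the replicate block and the length offset, 0 by limma on TPM and with voom, 2 with DESeq2, and 0 to 6 when 1 library was left out, the 6 arising without Control library 1, where 782 genes were called in all. The replicate numbers were not shown to pair the mice, since samples of the same number had correlations of 0.0669, 0.106 and -0.255. With the replicate block 12 genes reached an unadjusted p under 0.05 with a positive value in place of 21, and 11 with the block and the length offset. This count ran from 8 to 36 over the libraries left out, genes with every M1 library above from 30 to 50 (14.6% to 22.4% of all tested genes), and genes with every M1 library below from 1 to 4 (14.0% to 23.7%). The median log2 fold change ran from 0.19 to 0.32 over these, that of the large subunit from 0.19 to 0.31, of the small subunit from 0.20 to 0.34, and the large minus small difference from -0.08 to 0.02, the 0.02 arising without M1 library 1. The difference was -0.11 with the length offset and -0.12 with offset and block, and the mitochondria-specific median was 0.12 under both. On TPM with a pseudocount of 1 or 0.1, 4 genes reached an unadjusted p under 0.05 with a positive and 3 with a negative value, 5 genes lay above and 6 below without overlap, the median was 0.06 for all members, large subunit, bacterial and mitochondria-specific genes, and 0.11 and 0.12 for the small subunit, while that of all tested genes was -0.16 and -0.18. The share of all tested genes with an unadjusted p under 0.05 is not given for the replicate block, the left-out libraries or TPM. The counts of genes under that p are therefore no result about the members alone. The cause of the changes between settings was not tested.

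Genes with a log2 fold change near 0 changed sign. Mrpl10 was at -0.14 with the length offset, with or without the replicate block, at -0.15 on both TPM scales, and between -0.04 and 0.12 over the libraries left out. Mrpl15 was at -0.11 on both TPM scales and between -0.06 and 0.18 over the libraries left out. Mrps18a was at -0.00 with the replicate block and with voom, at -0.18 on both TPM scales, and between -0.07 and 0.07 over the libraries left out. Mrps23 was at -0.01 with the replicate block, -0.20 with the length offset with or without the block, -0.19 on both TPM scales, -0.02 with voom, and between -0.29 and 0.21 over the libraries left out. Mrps27 lay between -0.23 and 0.01 over the libraries left out. Mrps34 was at 0.01 with a minimum of 10 counts in every library, 0.03 with the replicate block, 0.02 with voom, and between -0.22 and 0.15 over the libraries left out.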
